A study of Mus musculus with 6 samples.

Results

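The 10 genes described here are imprinted genes with known ties to growth (H19, Mest, Peg3, Plagl1, Dlk1, Meg3, Grb10, Ndn, Zim1 and Sgce). They were chosen by symbol, with earlier results of these data known, and all 10 were found among the 16895 genes of the deposited table. The table came from bulk RNA-seq of fibroadipogenic progenitors (FAPs), the mesenchymal progenitors of skeletal muscle that give rise to fibroblasts and adipocytes. The study compared 3 libraries of control FAPs (labelled non-senescent FAPs) with 3 libraries of senescent FAPs, and its purpose here was to describe a cell culture model of FAP senescence. FAPs of both groups came from hindlimb muscles of male and female C57BL/6 mice aged 3 to 6 months, with magnetic sorting for SCA-1+ cells that lacked CD45, CD31 and α7-integrin. Senescent FAPs had received 20 μM of etoposide, a topoisomerase inhibitor that breaks DNA, for 48 h and then 5 days of normal medium, so drug exposure and senescence cannot be told apart. The labels do not say whether libraries of a group came from separate mice or cultures, and the p-values measure the spread between these libraries, which may be technical.

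Imprinted genes are transcribed mainly from either the maternal or the paternal copy. The copies commonly differ in DNA methylation that was laid down in the egg or the sperm. Many imprinted genes lie in clusters that share a control region. Many paternally expressed members (Mest, Peg3, Plagl1, Dlk1 and Ndn) and maternally expressed members (H19, Meg3 and Grb10) act on fetal growth and on progenitor cells, and several of them form a co-expressed network around Plagl1, a zinc finger transcription factor. Gene totals sum both parental copies and all isoforms, so neither allele use nor methylation was measured. In bulk samples, fewer cells of a type and less RNA per cell cannot be told apart.

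H19 and Meg3 are long non-coding RNAs that carry microRNAs in their exons. The mature arms of both are shown because H19 and Meg3 behaved differently in senescent FAPs. They were read from RefSeq (GRCm38.p6), 5′ to 3′, with the seed (bases 2 to 8) in capitals. The H19 arms lie on the minus strand at chr7:142577112-142577133 (miR-675-5p) and chr7:142577078-142577099 (miR-675-3p). The Meg3 arms lie on the plus strand at chr12:109563710-109563731 (miR-770-5p) and chr12:109563744-109563765 (miR-770-3p). No seed was shared among the 4 arms.
miR-675-5p: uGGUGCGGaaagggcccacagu
miR-675-3p: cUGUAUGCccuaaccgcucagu
miR-770-5p: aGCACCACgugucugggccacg
miR-770-3p: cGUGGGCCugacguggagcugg

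RefSeq promoter windows, from 250 bases before to 50 after a transcript start, were matched for 8 of the 10 members (12 windows). Those of Plagl1, Grb10 and Dlk1 are shown because these 3 genes fell together, and that of Ndn because it rose. Capitals mark TGCCGC on either strand, the letters bound by the imprint-protecting zinc finger protein Zfp57 when methylated. The Plagl1 window lies on the plus strand at chr10:13090582-13090881, the Grb10 window on the minus strand at chr11:12037371-12037670, the Dlk1 window on the plus strand at chr12:109452573-109452872 and the Ndn window on the plus strand at chr7:62348027-62348326.
Plagl1: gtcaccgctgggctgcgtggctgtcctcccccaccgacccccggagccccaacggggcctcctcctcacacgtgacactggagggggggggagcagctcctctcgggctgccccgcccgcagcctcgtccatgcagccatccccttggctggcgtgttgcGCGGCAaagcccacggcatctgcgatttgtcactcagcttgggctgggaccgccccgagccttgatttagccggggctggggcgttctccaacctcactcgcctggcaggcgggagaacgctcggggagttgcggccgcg
Grb10: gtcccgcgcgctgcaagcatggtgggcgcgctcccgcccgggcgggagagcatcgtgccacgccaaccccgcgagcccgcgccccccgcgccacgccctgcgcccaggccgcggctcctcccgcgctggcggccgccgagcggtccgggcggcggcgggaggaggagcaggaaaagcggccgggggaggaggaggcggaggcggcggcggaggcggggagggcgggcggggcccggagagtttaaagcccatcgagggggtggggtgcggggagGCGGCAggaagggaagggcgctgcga
Dlk1: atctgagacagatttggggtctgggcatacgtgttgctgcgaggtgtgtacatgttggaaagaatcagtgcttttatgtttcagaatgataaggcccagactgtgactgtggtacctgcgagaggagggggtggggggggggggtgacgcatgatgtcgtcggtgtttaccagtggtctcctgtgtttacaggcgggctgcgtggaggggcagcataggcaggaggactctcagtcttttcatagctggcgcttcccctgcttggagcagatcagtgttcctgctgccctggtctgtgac
Ndn: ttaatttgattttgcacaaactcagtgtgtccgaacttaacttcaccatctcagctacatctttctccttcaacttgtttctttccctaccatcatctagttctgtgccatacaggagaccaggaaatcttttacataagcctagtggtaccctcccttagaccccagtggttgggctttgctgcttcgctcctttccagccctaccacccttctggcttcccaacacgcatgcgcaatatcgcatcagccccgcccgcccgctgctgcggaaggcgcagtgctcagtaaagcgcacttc

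TGCCGC was found in the Plagl1 and Grb10 windows above and not in those of Dlk1 and Ndn. Among members it occurred in 6 of 12 windows, which belong to 5 of 8 genes (Grb10, Meg3, Mest, Plagl1 and Zim1), against 11.6% of all 32817 windows and 18.9% of the 12970 windows of tested genes. Overlapping windows of Mest share the same letters. GGGGCCCC, a palindrome that the Plagl1 protein can bind, was found in the Peg3 window only, and it occurred in 1.49% of the windows of tested genes. The first Grb10 window had an observed over expected CpG ratio of 0.973, against a median of 0.742 over the windows of tested genes. A second Grb10 window had a ratio of 0.446 and no TGCCGC, and which start FAPs use was not tested. The ratio was 0.696 for Plagl1, 0.623 for Ndn and 0.427 for Dlk1. These matches describe letters and say nothing about binding.

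The libraries held 41415072 to 59915575 reads on genes, and 1 read was worth 0.0167 to 0.0225 CPM (reads relative to a library size that is scaled between libraries). The scaling factors lay between 0.917 and 0.940 for control libraries and between 1.07 and 1.09 for senescent libraries, so the choice of scaling shifts every senescent value. The comparison used limma, with log2(CPM + 0.5) as the measure, and a gene was called at a Benjamini-Hochberg adjusted p under 0.05 over 14777 tested genes. Values of log2 fold change are senescent minus control on that scale, where the pseudocount shrinks the changes of weakly expressed genes. The median over all tested genes was -0.03, and it became 0.17 when values were divided by library totals alone.

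Of the 10 members, 4 were called lower in senescent FAPs (H19, Plagl1, Grb10 and Dlk1), 2 were called higher (Ndn and Zim1) and 4 did not pass the test (Meg3, Peg3, Sgce and Mest). Among all tested genes, 24.3% were called lower, 21.8% higher and 46.1% in either direction, so the members' share of calls was near the background. Control and senescent libraries did not overlap for these 6 genes, as for 57.4% of all tested genes. The median log2 fold change of the 10 members was -0.04. All 10 passed the filter of 0.5 CPM in 3 libraries, but Zim1 did so through senescent libraries only, which means that it had to differ. The counts were 1 higher and 4 lower after quantile normalization, and 1 higher and 3 lower without senescent replicate 2. Without control replicate 1, 1 member was called higher. Past the test and beyond a log2 fold change of 1 were H19, Plagl1 and Grb10, all lower, where 11.2% of all tested genes were past both limits in either direction.

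**Figure D1:**
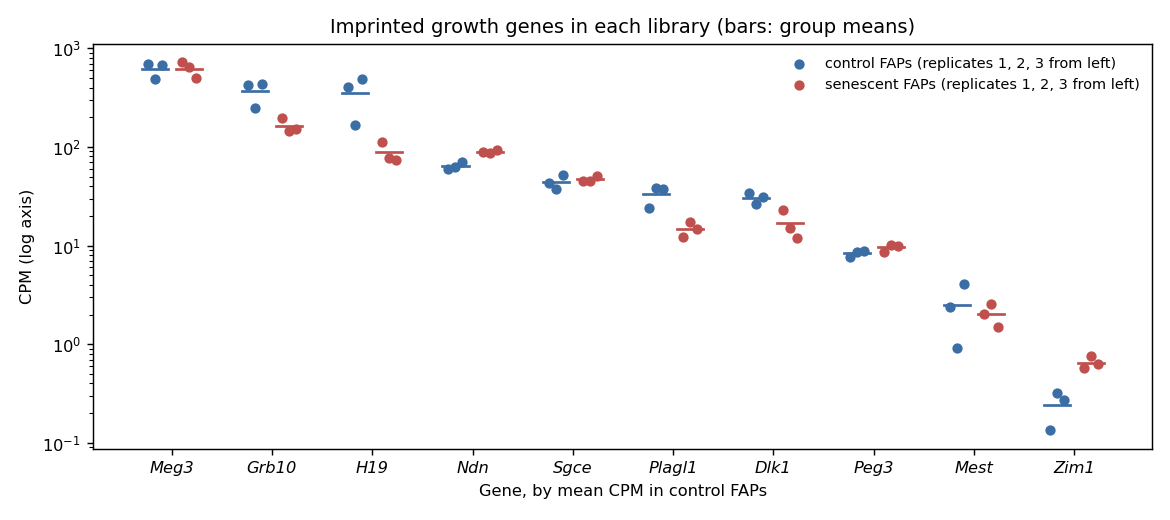
Expression of the 10 members in each library, in CPM on a log axis, with control FAPs in blue, senescent FAPs in red, points for replicates 1 to 3 from left to right and bars for group means. The red points of H19, Grb10, Plagl1 and Dlk1 lie below all their blue points, those of Ndn and Zim1 lie above, and the other 4 genes overlap.

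H19 (ENSMUSG00000000031.16, chr7:142575529-142578143, minus strand, mm10), a maternally expressed RNA known to restrain growth, had the largest fold among the members. Its level was 409, 166 and 485 CPM in control replicates 1, 2 and 3, and 112, 77.1 and 74.5 CPM in senescent replicates 1, 2 and 3. All senescent libraries were below all control libraries, and control replicate 2 lay far below the other controls. The means were 353 ± 167 CPM (SD, n = 3) and 87.9 ± 21.0 CPM (SD, n = 3), 4.02-fold lower in senescent FAPs. The log2 fold change was -1.89 (SE 0.38, 95% interval -2.76 to -1.01, limma adjusted p = 0.00568). Without control replicate 2 or any other single library it stayed between -2.36 and -1.59 and past the test.

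The table also has a row for Mir675, the host of the miR-675 arms printed above, which lies wholly within an H19 exon and was named after its values were seen. It held 24.0, 10.1 and 30.4 CPM in control FAPs and 6.67, 3.04 and 5.42 CPM in senescent FAPs, lower in every senescent library. Its log2 fold change was -1.91 (SE 0.42, limma adjusted p = 0.00824). The library kit selects polyadenylated RNA, so these reads come from the host transcript and are no measure of the mature miRNA.

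Grb10 (ENSMUSG00000020176.17, chr11:11930508-12038683, minus strand) encodes an adaptor protein that dampens insulin and insulin-like growth factor receptor signaling. It held 423, 246 and 435 CPM in control replicates and 195, 146 and 150 CPM in senescent replicates. The groups did not overlap, and control replicate 2 was again the lowest control. The mean fell from 368 ± 105 to 164 ± 27.2 CPM (SD, n = 3 each), 2.24-fold, with a log2 fold change of -1.13 (SE 0.22, limma adjusted p = 0.00551).

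Plagl1 (ENSMUSG00000019817.18, chr10:13060504-13131694, plus strand), known as Zac1, encodes a zinc finger factor that can arrest the cell cycle. Its values were 24.1, 38.0 and 37.5 CPM in control FAPs and 12.1, 17.3 and 14.6 CPM in senescent FAPs. Replicate 1 was the lowest library in each group, and the groups did not overlap. The mean fell 2.27-fold from 33.2 ± 7.88 to 14.6 ± 2.59 CPM (SD, n = 3 each), with a log2 fold change of -1.14 (SE 0.20, limma adjusted p = 0.00344).

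Dlk1 (ENSMUSG00000040856.17, chr12:109452823-109463336, plus strand) encodes a membrane protein of the Notch ligand family that holds back adipocyte differentiation. It held 34.5, 26.3 and 30.9 CPM in control replicates and 23.1, 15.2 and 12.02 CPM in senescent replicates. The highest senescent library stayed just under the lowest control library. The mean fell 1.82-fold from 30.5 ± 4.11 to 16.8 ± 5.70 CPM (SD, n = 3 each), a log2 fold change of -0.89 (SE 0.22, limma adjusted p = 0.0146). The call was lost without senescent replicate 2, where the log2 fold change was -0.85 and the limma adjusted p = 0.0557 (0.00191 to 0.0557 over all alternatives).

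Ndn (ENSMUSG00000033585.5, chr7:62346569-62350262, plus strand) encodes necdin, a growth suppressor of the MAGE family that can bind p53 and E2F1. It rose in senescent FAPs, from 59.2, 63.1 and 70.3 CPM in control replicates to 88.5, 85.9 and 93.7 CPM in senescent replicates. The groups were far apart relative to their spread, at 64.2 ± 5.64 and 89.4 ± 3.98 CPM (SD, n = 3 each), a 1.39-fold difference. The log2 fold change was 0.48 (SE 0.08, limma adjusted p = 0.00348), the smallest change among the called members and the smallest SE.

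Zim1 (ENSMUSG00000002266.17, chr7:6671269-6696450, minus strand), a maternally expressed zinc finger gene, was barely detected. Its reads numbered 6, 17 and 15 in control replicates and 29, 45 and 28 in senescent replicates, or 0.134, 0.323 and 0.269 CPM against 0.576, 0.753 and 0.630 CPM. Every senescent library was above every control library, which the filter made certain, since none of the control libraries reached 0.5 CPM. The log2 fold change was 0.64 (SE 0.17, limma adjusted p = 0.0168). It was 1.43 with edgeR's quasi-likelihood test and 1.46 with DESeq2 on recovered reads, and 1.17 with a pseudocount of 0.1. The call was lost without control replicate 1 (0.53, limma adjusted p = 0.0570), without senescent replicate 2 (0.58, limma adjusted p = 0.0637) and after quantile normalization (0.23, limma adjusted p = 0.283, the highest over all alternatives, with 0.00821 the lowest).

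Meg3 (ENSMUSG00000021268.17, chr12:109541001-109571726, plus strand), a maternally expressed RNA that can raise p53 activity, was abundant in both groups. It held 687, 492 and 676 CPM in control replicates and 719, 639 and 503 CPM in senescent replicates. The ranges overlapped almost wholly, with means of 618 ± 109 and 621 ± 109 CPM (SD, n = 3 each). The log2 fold change was 0.01 (95% interval -0.40 to 0.41, limma adjusted p = 0.982). A row for Mir1906-1, within Meg3 and named after its values were seen, had a log2 fold change of -0.12 (SE 0.24, limma adjusted p = 0.692).

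The other 3 members did not pass the test either. Peg3, a zinc finger gene (ENSMUSG00000002265.16, chr7:6703892-6730431, minus strand), held 7.72, 8.67 and 8.74 CPM in control FAPs and 8.70, 10.2 and 9.81 CPM in senescent FAPs. Its log2 fold change was 0.18 (95% interval -0.10 to 0.46, limma adjusted p = 0.253), and it was called higher with division by library totals alone (0.38, limma adjusted p = 0.0372, the lowest of a range up to 0.513). Sgce, which encodes ε-sarcoglycan of the muscle membrane complex (ENSMUSG00000004631.15, chr6:4674350-4747207, minus strand), held 43.3, 37.9 and 51.7 CPM in control FAPs and 45.5, 45.3 and 51.1 CPM in senescent FAPs. Its log2 fold change was 0.10 (95% interval -0.18 to 0.38, limma adjusted p = 0.505). The values of both genes overlapped between groups.

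Mest, which encodes an enzyme of the hydrolase fold family linked to fat cell size (ENSMUSG00000051855.15, chr6:30723547-30748465, plus strand), was low and uneven. It held 2.41, 0.913 and 4.11 CPM in control replicates and 2.05, 2.54 and 1.51 CPM in senescent replicates. The control libraries spread on either side of the senescent ones, with a coefficient of variation of 64.6% in control FAPs and 25.5% in senescent FAPs. The log2 fold change was -0.10 with a 95% interval of -1.03 to 0.84 (limma adjusted p = 0.863). Exons of Copg2 on the opposite strand overlap 23.1% of the Mest exons, and whether the counting used strand is not given in the sources used here. Copg2 itself was higher in senescent FAPs (log2 fold change 0.42, SE 0.12, limma adjusted p = 0.0230) and was named after its values were seen. Its call was lost without control replicate 1, senescent replicate 2 or senescent replicate 3 (limma adjusted p = 0.0629, 0.0839 and 0.0768).

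**Figure D2:**
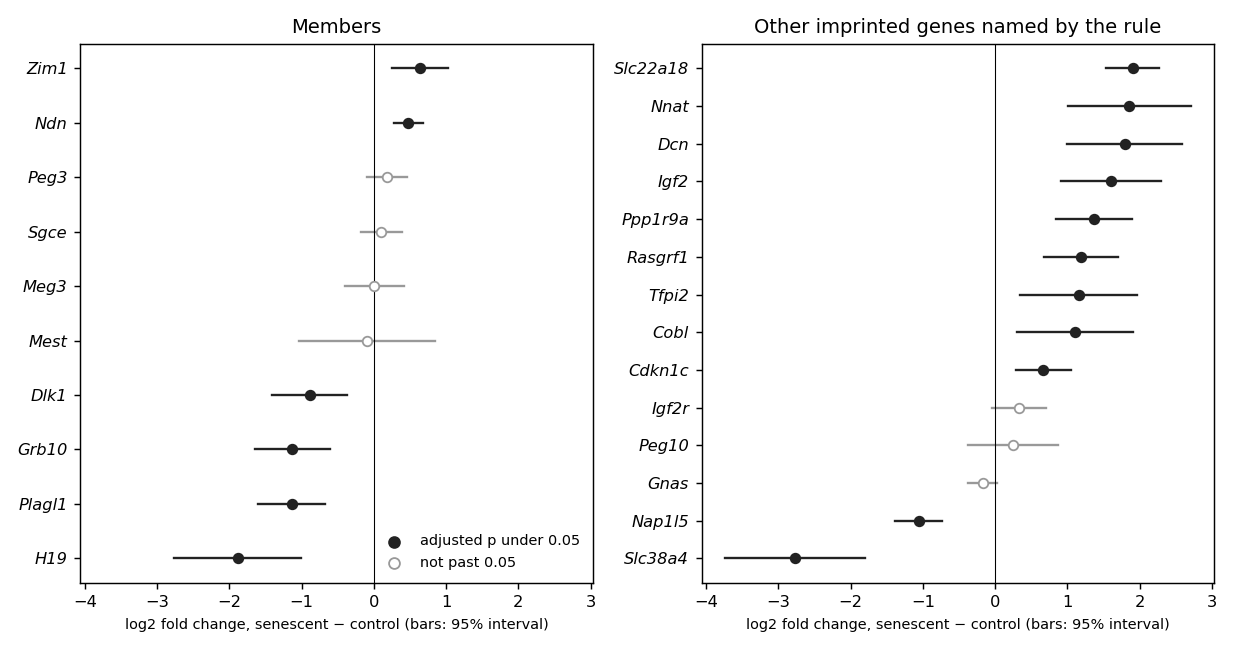
Log2 fold changes (senescent minus control) of the members on the left and of the other imprinted genes named here by rule on the right, as points with 95% intervals from limma, filled where the adjusted p was under 0.05. H19 lies lowest among the members at -1.89, and the interval of Mest is the widest among them.

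Per kb of annotated exon, H19 was the most abundant member in control FAPs, at 144 CPM per kb (67.5 to 197). Grb10 (40.5 CPM per kb) and Meg3 (34.2 CPM per kb) came next and overlapped each other in range, followed by Ndn at 17.4 CPM per kb. Dlk1 (5.40), Plagl1 (4.25) and Sgce (4.17 CPM per kb) formed a group in which neighbors overlapped, Peg3 (0.629) and Mest (0.628 CPM per kb) overlapped, and Zim1 was last at 0.0299 CPM per kb. In senescent FAPs, H19 (35.7 CPM per kb) and Meg3 (34.3 CPM per kb) overlapped at the top, Ndn (24.2 CPM per kb) stood above Grb10 (18.0 CPM per kb) and Sgce (4.46 CPM per kb) above Dlk1 (2.96 CPM per kb). These levels divide by the union of all annotated exons and are low for genes whose FAP isoforms are short.

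Control replicate 2 was the lowest control library for 6 members (H19, Mest, Dlk1, Meg3, Grb10 and Sgce) and the highest for 2 (Plagl1 and Zim1). The pattern most like that of H19 over the 6 libraries was that of Grb10 (Pearson r = 0.998 on log2 values), a member itself, followed by Slc1a5 and Atrnl1 (both r = 0.996). Their likeness is partly that of the group difference, which all 6 libraries share, and 484 genes had r above 0.95 with H19. For Plagl1 the most alike were Klhl26 (r = 0.998), Syde2 (r = 0.996) and Huwe1 (r = 0.995), with 171 genes above 0.95. Slc1a5, a glutamine transporter, fell from a mean of 192 to 67.1 CPM.

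H19 shares its cluster on chromosome 7 with Igf2, the paternally expressed growth factor whose start lies 88.7 kb away and which competes with H19 for the same enhancers. Igf2 moved the other way, with 7.03, 4.45 and 11.8 CPM in control replicates and 20.1, 24.4 and 24.4 CPM in senescent replicates. Senescent libraries were all above the control libraries, and the log2 fold change was 1.60 (SE 0.30, limma adjusted p = 0.00422). The log2 ratio of H19 to Igf2 was 5.77, 5.07 and 5.30 in control FAPs and 2.45, 1.64 and 1.59 in senescent FAPs. It differed by -3.49 between group means (exact permutation test, two-sided p = 0.1, the smallest that 3 against 3 libraries allow). Farther along the chromosome, Cdkn1c, which encodes the cell cycle inhibitor p57, rose from 1.91 to 3.32 CPM (log2 fold change 0.66, SE 0.16, limma adjusted p = 0.0136), a call that was lost without senescent replicate 2 (0.55, limma adjusted p = 0.0575, with 0.00194 the lowest over alternatives). Slc22a18, a transporter gene beside it, rose 4.31-fold from 2.47 ± 0.310 to 10.6 ± 1.43 CPM (SD, n = 3 each, log2 fold change 1.90, limma adjusted p = 2.33e-04).

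The cluster on chromosome 12 was split. Dlk1 at one end fell, Meg3 at 88.2 kb gave 0.01, and Dio3 at 826.2 kb, which encodes the enzyme that inactivates thyroid hormone, was called higher. Dio3 held 98.0, 38.7 and 85.3 CPM in control replicates and 153, 133 and 128 CPM in senescent replicates (log2 fold change 0.99, SE 0.31, limma adjusted p = 0.0328). Without control replicate 2, its lowest library, the log2 fold change was 0.58 (limma adjusted p = 0.00278, the lowest over alternatives). The call was lost without senescent replicate 1, 2 or 3, where the log2 fold change was 0.92, 1.02 and 1.05 (limma adjusted p = 0.0876, 0.0835 and 0.0794), and without the variance trend (limma adjusted p = 0.0503). Rian and Mirg, long RNAs transcribed from the same strand as Meg3 and hosts of small RNAs, were both called lower. Rian fell from 652 ± 29.6 to 396 ± 40.7 CPM (SD, n = 3 each, log2 fold change -0.72, SE 0.10, limma adjusted p = 0.00112). Mirg fell from 28.9 to 18.2 CPM (log2 fold change -0.67, SE 0.16, limma adjusted p = 0.0123), a call that just failed without senescent replicate 2 (-0.64, limma adjusted p = 0.0501). Dio3, Rian and Mirg were named after their values were seen.

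**Figure D3:**
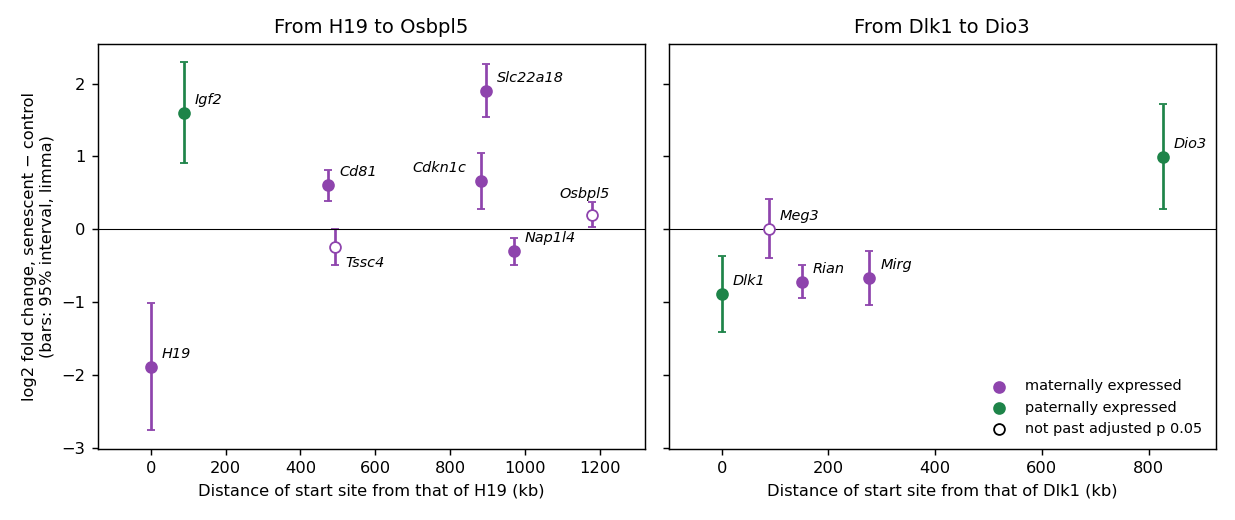
Log2 fold change (senescent minus control) with 95% intervals from limma, against the distance in kb of each gene's start. Distances are from the start of H19 on the left and of Dlk1 on the right. Purple marks genes listed as maternally expressed and green those listed as paternally expressed, which was not measured here. Open points mark an adjusted p of 0.05 or more. H19 at -1.89 and Igf2 at 1.60 lie 88.7 kb apart, and Dlk1 and Dio3 lie on opposite sides of 0.

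The log2 ratio of Meg3 to Dlk1 was 4.30, 4.20 and 4.43 in control FAPs and 4.93, 5.35 and 5.33 in senescent FAPs, a difference of 0.89 between group means. That of Zim1 to Peg3, which start 33.98 kb apart, was -3.70, -3.48 and -3.59 in control FAPs and -3.10, -3.10 and -3.19 in senescent FAPs, a difference of 0.46. All senescent libraries were above all control libraries for Meg3 to Dlk1 (exact permutation test, two-sided p = 0.1, the smallest possible here). They were also apart for Zim1 to Peg3, but Zim1 passed the filter through senescent libraries only and had to differ, so no p is given for that pair. The Zim1 to Peg3 difference ranged from 0.24 with a pseudocount of 1 to 0.99 with a pseudocount of 0.1. The ratio of Sgce to Peg10, whose starts lie 0.099 kb apart on opposite strands, was 0.57, 0.57 and 0.24 in control FAPs and 0.80, -0.01 and 0.16 in senescent FAPs, with overlapping groups (exact permutation test, two-sided p = 0.6). Adjusted over the 4 ratios computed (Benjamini-Hochberg), the permutation p was 0.133 for Meg3 to Dlk1 and for H19 to Igf2, and 0.6 for Sgce to Peg10. The adjustment counts Zim1 to Peg3, where Zim1 had to differ. The adjusted p of Meg3 to Dlk1 and of H19 to Igf2 is therefore lower than it would be without that pair.

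**Figure D4:**
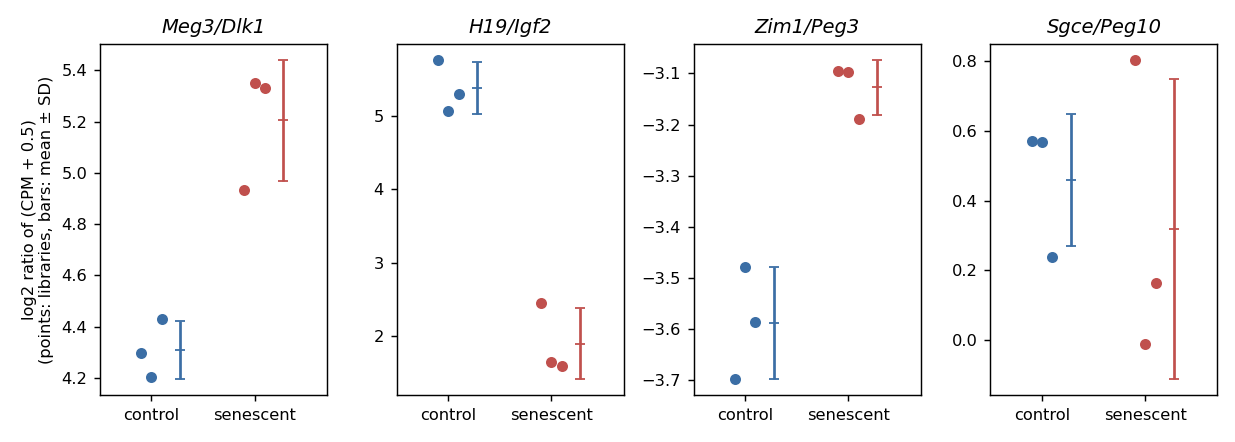
Log2 ratio of (CPM + 0.5) between a pair of genes of 1 cluster in each library, with bars for mean ± SD (n = 3) and a separate vertical scale, not starting at 0, in each panel. Control and senescent FAPs are apart for Meg3 to Dlk1, H19 to Igf2 and Zim1 to Peg3, where Zim1 passed the filter through senescent libraries only, and overlap for Sgce to Peg10.

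Near Ndn on chromosome 7, the paternally expressed genes of the same region did not all move alike. Snrpn, which encodes a splicing protein, rose from 5.93 to 9.33 CPM (log2 fold change 0.62, SE 0.15, limma adjusted p = 0.0109). Snurf lies inside Snrpn and shares its reads, so its value is not separate. Peg12 fell from 11.3 ± 0.911 to 5.89 ± 0.319 CPM (SD, n = 3 each, log2 fold change -0.88, SE 0.12, limma adjusted p = 0.00121). These 3 genes were named after their values were seen.

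Of 60 other imprinted genes on a hand-written list, 47 were in the table and 41 were tested. Of these, 19 were called higher, 8 lower and 14 did not pass the test, where 21.8% of all tested genes were called higher and 24.3% lower. Their median log2 fold change was 0.25, against -0.03 over all tested genes. This list was written with earlier results of these data known, so its counts and median are a description and no test. Without senescent replicate 2 the counts were 9 higher and 5 lower. Ppp1r9a, 1 of the 19, was the only one of the 41 that passed the filter through senescent libraries alone, and it had to differ. By the parental origin written on the list, 11 of 24 maternally expressed genes were called higher and 5 lower, beside the same background. Of 17 paternally expressed genes, 8 were called higher and 3 lower. Snrpn and Snurf, which share reads, are both counted among these 8 and among the 19. These labels are general, and allele use in FAPs was not measured. Among the members themselves, 1 of 4 maternally expressed genes was called higher and 2 lower, and 1 of 6 paternally expressed genes was called higher and 2 lower.

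The largest change on that list was that of Slc38a4, a paternally expressed amino acid transporter gene, which held 4.60, 9.28 and 17.4 CPM in control replicates and 0.616, 1.17 and 1.01 CPM in senescent replicates. It was lower in all senescent libraries (log2 fold change -2.77, SE 0.42, limma adjusted p = 0.00181). Nap1l5, a retrogene of the nucleosome assembly family, fell from 2.06 to 0.727 CPM (-1.06, limma adjusted p = 0.00101). Higher in senescent FAPs were Nnat, which encodes a small membrane proteolipid (1.89 to 8.17 CPM, log2 fold change 1.86, limma adjusted p = 0.00547), and Dcn, the matrix proteoglycan decorin (62.3 to 197 CPM, 1.79, limma adjusted p = 0.00465). Dcn is also a fibroblast marker and is imprinted mainly in placenta. Rasgrf1, a Ras activator, rose from 1.12 to 3.09 CPM (1.19, limma adjusted p = 0.00422). Ppp1r9a, which encodes an actin-binding protein, held 0.299 CPM in control FAPs and 1.59 CPM in senescent FAPs (1.37, limma adjusted p = 0.00261). It passed the filter through senescent libraries only and had to differ, so this p is no evidence of a rise. The Ppp1r9a log2 fold change was 2.10 with a pseudocount of 0.1, 0.98 with a pseudocount of 1, 2.41 with edgeR and 2.43 with DESeq2.

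Tfpi2, a protease inhibitor gene (15.2 to 31.6 CPM, log2 fold change 1.16, limma adjusted p = 0.0290), and Cobl, an actin nucleator gene (1.85 to 4.25 CPM, 1.10, limma adjusted p = 0.0328), were called higher although control replicate 2 overlapped the senescent libraries for Tfpi2 and nearly reached them for Cobl. Both calls ended without control replicate 1 or 3 or senescent replicate 2 or 3, with limma adjusted p of 0.0731 to 0.1004 for Tfpi2 and 0.0847 to 0.115 for Cobl. The Cobl call also ended after quantile normalization (limma adjusted p = 0.0530) and with the edgeR quasi-likelihood test (adjusted p = 0.0534). Igf2r, the receptor that clears Igf2, held 326 and 410 CPM on average (0.33, limma adjusted p = 0.131) and was called higher with division by library totals alone (0.54, limma adjusted p = 0.0258) and after quantile normalization (0.51, limma adjusted p = 0.0322), with 0.362 the highest over alternatives. Gnas, the gene of the stimulatory G protein α subunit, held 1133 and 1005 CPM (-0.17, limma adjusted p = 0.142). Peg10, a retrotransposon-derived gene, held 32.7 and 39.1 CPM (0.25, limma adjusted p = 0.478).

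Of 16 genes that set, keep, read or remove imprint methylation, 14 were in the table and tested. In senescent FAPs 10 were called lower, 0 higher and 4 did not pass (Dnmt3a, Dnmt3l, Zfp445 and Tet2), where 24.3% of all tested genes were called lower and 21.8% higher. Their median log2 fold change was -0.60, against -0.03 over all tested genes. This list too was written with earlier results of these data known, so its counts and median are a description and no test. With division by library totals alone, 8 were called lower and 1, Zfp445, higher. Uhrf1, which brings the maintenance methyltransferase to replicated DNA, fell from 32.2, 37.7 and 20.1 CPM in control replicates to 4.27, 2.74 and 1.98 CPM in senescent replicates (-3.13, SE 0.29, limma adjusted p = 3.33e-04). Dnmt1, that methyltransferase, fell 2.68-fold from 100.2 ± 17.3 to 37.3 ± 3.02 CPM (SD, n = 3 each, -1.40, limma adjusted p = 3.31e-04). Zfp57, whose letters are marked in the promoter windows above, fell from 15.1, 12.2 and 15.3 CPM to 6.43, 4.75 and 5.09 CPM (-1.32, SE 0.16, limma adjusted p = 6.99e-04), and its partner Trim28 fell from 263 to 172 CPM (-0.61, limma adjusted p = 0.00170, and -0.40 with division by library totals alone). The list holds both methylating and demethylating enzymes, since Tet1 and Tet3, which oxidize methylated cytosine, were also among the 10 lower genes. Uhrf1 and Dnmt1 are also known as genes of the S phase.

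The cell type was checked against marker lists. All 8 FAP markers were in the table, and their summed level was between 16955 and 35595 CPM in control libraries and between 9930 and 14254 CPM in senescent libraries, with 4 of the 8 called higher and 1 lower. Nearly all of that sum was Col1a1, which was called lower (means of 15545 and 3116 CPM), and Col3a1, which did not pass the test (10041 and 6471 CPM). Ly6a, Dcn, Lum and Cd34 were called higher, and Pdgfra held 192 and 218 CPM and did not pass the test. Of the 9 myogenic markers, Pax7, Myod1, Myf5, Myog, Cdh15 and Ckm were not in the table, and the remaining 3 summed to 14.3 to 19.3 CPM in control libraries and 23.7 to 30.5 CPM in senescent libraries. Ptprc, which encodes the leukocyte antigen CD45, and the macrophage marker Adgre1 were not in the table. The other 5 leukocyte markers summed to 10.9 to 13.8 CPM in control libraries and 26.4 to 32.5 CPM in senescent libraries. Of these, 4 were called higher, where 21.8% of all tested genes were. Itgam, 1 of the 4, passed the filter through senescent libraries only and had to differ. Of 6 endothelial markers 4 were listed, at 18.0 to 38.4 CPM in control libraries and 22.2 to 29.2 CPM in senescent libraries. All 6 mural markers were listed, at 306 to 406 CPM and 251 to 272 CPM. Most of that sum was Cspg4, which fell from a mean of 288 to 167 CPM, and Mcam was also called lower, while Rgs5 (1.32 to 4.70 CPM) and Notch3 (19.8 to 61.7 CPM) were called higher. Of 5 Schwann cell markers 4 were listed, at 3.86 to 8.40 CPM and 9.11 to 12.2 CPM, and of 5 adipocyte markers 1 was listed, at 2.73 to 3.69 CPM and 5.06 to 5.81 CPM. The part of other cells in the members' values was not tested.

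**Figure D5:**
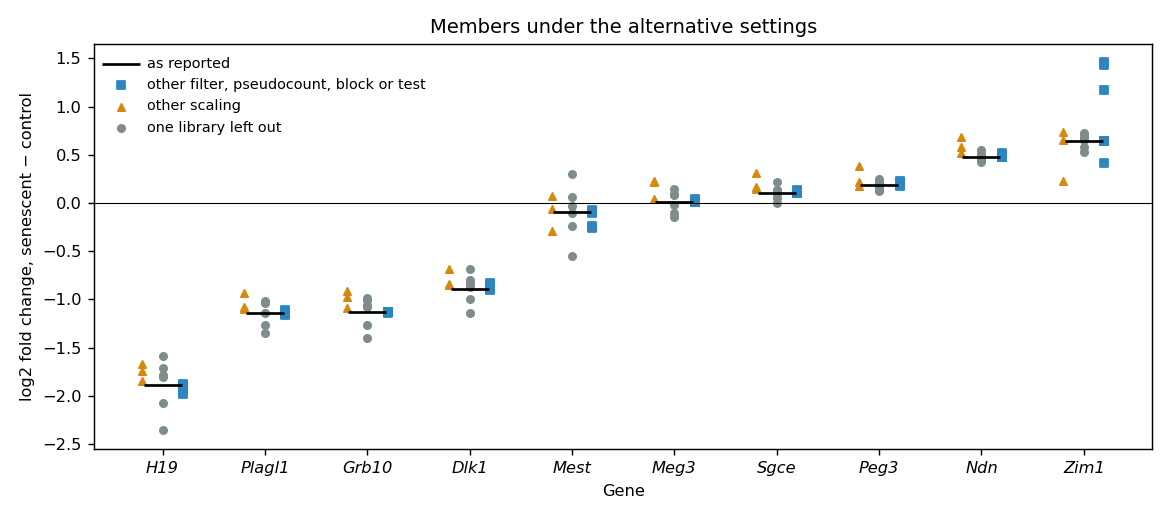
Log2 fold change (senescent minus control) of each member as reported (black line), under another scaling (triangles), with 1 library left out (circles) and under another filter, pseudocount, block or test (squares). H19, Plagl1, Grb10 and Dlk1 stay below 0 and Ndn and Zim1 above 0 under all of them, while Mest, Meg3 and Sgce fall on both sides of 0.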

How the data were processed

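RNA of 3 control and 3 senescent FAP libraries had been sequenced on an Illumina instrument after a stranded mRNA library kit. The authors deposited 1 table with a signal per gene and library, which is CPM of the effective library size from edgeR. The submitters' processing notes name edgeR 3.10, R 3.6.0 and mm10. The aligner, the counting tool, the annotation and the use of strand are not given in the sources used here. Every deposited signal was a whole multiple of 1 read (tolerance 0.001), so reads were recovered. All columns belonged to 1 of the 6 libraries.

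A gene needed 0.5 CPM or more in 3 or more libraries to be tested (14777 of 16895). The test was limma 3.58.1 under R 4.3.3, run on log2(CPM + 0.5) and a variance trend, two-sided, with Benjamini-Hochberg adjustment over all tested genes. The plan had assumed plain CPM, and the same test was kept. Coordinates and exon lengths came from GENCODE M21 (GRCm38), and promoters and microRNAs from RefSeq (GRCm38.p6). Chi-square per gene between replicates of a group was 14.9 to 149, so no library repeated another. Libraries with the same replicate number deviated from their group means together (r = 0.537, 0.308 and 0.207). Among libraries with different numbers, the highest r was 0.153, for control replicate 2 with senescent replicate 3. The numbers were taken to pair the libraries only in the replicate block alternative, and the main tests left the groups unpaired. The pairing comes from these correlations and not from the labels.

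Alternatives were pseudocounts of 0.1 and 1, no filter, a filter of 2 CPM, median-of-ratios factors, library totals, quantile normalization, no variance trend, the replicate number as a block, edgeR 4.0.16 and DESeq2 1.42.0 on recovered reads, and each library left out. The genes named are all members, other imprinted genes past the test with a log2 fold change beyond 1 (12 at most), Igf2, Cdkn1c, Igf2r, Gnas and Peg10, the 4 imprint maintenance genes with the smallest p, and the 3 genes most alike H19 and Plagl1. The members and lists were chosen with earlier results of these data known. The limma script was tested on simulated data.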

Additional observations from a re-analysis of the deposited data

How the results depend on the processing

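Over the 17 alternatives, the calls of H19 (log2 fold change -2.36 to -1.59), Grb10 (-1.40 to -0.92), Plagl1 (-1.35 to -0.93) and Ndn (0.42 to 0.69) kept their direction and stayed past the threshold. With the replicate block the members called were 2 higher and 4 lower, the other imprinted genes 20 higher and 8 lower, and the imprint maintenance genes 0 higher and 10 lower. The block changed no call of the imprinted and imprint maintenance genes named here. Calls of marker genes outside these lists and of the microRNA rows were not examined under the block. Members called higher numbered 1 with a filter at 2 CPM, where Zim1 was not tested, and 1 after quantile normalization. Leaving out 1 library at a time gave 1 to 2 members higher and 3 to 4 lower, 9 to 19 other imprinted genes higher and 5 to 9 lower, and 8 to 11 imprint maintenance genes lower. Over all genes these fits called 2130 to 3406 higher (2130 without senescent replicate 2) and 2416 to 3875 lower. Division by library totals alone called 4993 of all genes higher and 1930 lower, against 3219 and 3592 as reported, and 1 imprint maintenance gene higher, and it raised the median of all genes from -0.03 to 0.17. Mest, Meg3, Sgce, Gnas and Huwe1, none of them called, and the ratio of Sgce to Peg10 changed sign under some alternatives. Division by library totals alone gave 0.075 for Mest, 0.039 for Gnas and 0.029 for Huwe1, and quantile normalization gave 0.050 for Gnas and 0.035 for Huwe1. With 1 library left out, Mest ranged from -0.55 to 0.30, Meg3 from -0.15 to 0.15, Sgce from -0.0011 to 0.22 and the log2 ratio of Sgce to Peg10 from -0.38 to 0.024. The cause of these changes was not tested. Depth limits Zim1 most, with 6 to 45 reads a library.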

Other observations

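Among imprinted genes, 6 were in the table but under the filter. Rtl1, a retrotransposon-derived gene on the strand opposite to Meg3 and paternally expressed like Dlk1, held 0.201, 0.038 and 0.0898 CPM in control replicates and 0.477, 1.09 and 0.720 CPM in senescent replicates. Kcnq1, a potassium channel gene of the cluster that holds Cdkn1c, averaged 0.106 CPM in control FAPs and 0.424 CPM in senescent FAPs. Zdbf2 (0.131 and 0.690 CPM), Gpr1 (0.221 and 0.728 CPM), Tspan32 (0.170 and 0.386 CPM) and Mkrn3 (0.405 and 0.555 CPM) were similarly low. The filter kept all 6 out of the test as reported. With no filter on low values, limma called 5 of them higher (Gpr1, Kcnq1, Rtl1, Tspan32 and Zdbf2). That fit called 3837 of all 16895 genes higher. None of these 6 imprinted genes reached 0.5 CPM in a control library, so they were left under the filter partly by low control values.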
